A study of Mus musculus with 5 samples.

Results

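The genes described here encode 9 receptors, or receptor chains, for hematopoietic growth factors and cytokines: Csf1r, Csf3r, Csf2ra, Csf2rb, Kit, Flt3, Il7r, Il6ra and Ifngr1. They were taken by name from the 28692 genes of the tables and were examined in the 32135 barcodes that held at least 500 unique molecular identifiers (UMIs), across progenitor-like and mature cell classes. In the study, 5 non-irradiated, immunocompetent C57BL/6J mice each received 1000 BCR-ABL1 pre-B acute lymphoblastic leukemia (ALL) cells by tail vein injection, and bone marrow was taken from 1 mouse on each of 5 days: day 0, 3, 6, 9 or 12. The day 0 mouse was taken straight after it had received the same cells, so no library came from a mouse without transplanted cells, and transplanted B-lineage cells could not be told apart from the mouse's own. Marrow flushed from femurs and tibias was pooled with cells released from the crushed bones by collagenase, treated with red cell lysis buffer, frozen, and profiled by 10x Genomics 3′ v2 single-cell RNA sequencing as 1 library for each day. With 1 mouse a day, a difference between days cannot be told apart from a difference between mice or libraries, and no test between days was possible. Ratios against day 0 all share the day 0 library.

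Growth factor receptors carry the signals that keep progenitors alive, make them divide and steer them to a lineage. Csf1r, Kit and Flt3 are receptor tyrosine kinases. The others are cytokine receptors without a kinase of their own, which signal through JAK kinases and STAT factors, and several of them work only with a shared second chain. In bone marrow, Kit and Flt3 mark early progenitors, Csf3r and Csf1r serve granulocyte and monocyte production, and Il7r serves lymphoid development.

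The positions of the genes in GRCm38 (mm10) show which other genes they overlap. Overlaps were taken over whole genes, introns included, and do not show that counted reads are shared. Csf1r (ENSMUSG00000024621) overlaps Hmgxb3 on the other strand and the microRNA gene Mir6983 on its own, and Flt3 (chromosome 5, 147330741 to 147400489, minus strand) and Il6ra (chromosome 3, 89864059 to 89913196, minus strand) each overlap an antisense gene. Csf2rb (chromosome 15, 78325752 to 78353847) lies beside its close copy Csf2rb2 (78282507 to 78305721) and overlaps the microRNA gene Mir7676-2 on its own strand, and 345 of the 4803 stretches of 98 bases in its transcript are also found in Csf2rb2. None of the 403 stretches in the last 500 bases is shared. The counts of the 2 genes are given separately, and mixing between them was not tested.

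Promoter windows of 250 bases before the gene start are shown for the receptors whose window lies upstream of the gene in both annotations used, since these genes are highest in different classes described below: Flt3 in dendritic-like and stem-like cells, Il6ra in monocyte-like cells and Ifngr1 in nonclassical monocyte-like cells. RefSeq entries were found for 7 of the 9 receptors (GRCm38.p6), and 3 windows met that rule. Capitals mark AGGAAG on either strand (AGGAAG or CTTCCT), the core bound by the ETS factor PU.1.
Flt3, chr5:147400490-147400739, minus strand: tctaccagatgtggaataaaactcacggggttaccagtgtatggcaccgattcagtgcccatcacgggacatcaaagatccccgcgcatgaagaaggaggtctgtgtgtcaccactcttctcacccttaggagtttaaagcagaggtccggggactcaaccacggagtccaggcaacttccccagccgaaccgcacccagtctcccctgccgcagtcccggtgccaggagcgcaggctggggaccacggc
Il6ra, chr3:89913197-89913446, minus strand: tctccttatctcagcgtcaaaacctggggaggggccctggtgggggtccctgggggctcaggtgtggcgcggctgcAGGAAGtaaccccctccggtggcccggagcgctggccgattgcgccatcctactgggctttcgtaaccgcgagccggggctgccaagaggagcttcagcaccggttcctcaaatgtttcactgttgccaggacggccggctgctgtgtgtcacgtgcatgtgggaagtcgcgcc
Ifngr1, chr10:19591699-19591948, plus strand: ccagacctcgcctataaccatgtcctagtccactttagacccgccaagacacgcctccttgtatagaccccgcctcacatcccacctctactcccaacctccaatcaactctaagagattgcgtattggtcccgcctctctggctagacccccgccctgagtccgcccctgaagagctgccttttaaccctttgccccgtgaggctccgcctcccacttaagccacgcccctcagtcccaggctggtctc

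The AGGAAG letters were found in the windows of 5 of the 7 receptors: 4 times in Csf3r, 2 times in Csf2ra and 1 time each in Kit, Il7r and Il6ra. Of all 32851 promoter windows of this length, 29.5% held them. The GATA letters AGATAA or TTATCT (9.99% of all windows) and the E-box CACGTG (6.02%), which do not overlap AGGAAG, were found in the Il6ra window and in no other of the 7. A match is a description of letters and does not show binding.

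The libraries held 33425695 to 43554233 UMIs, and 5474 to 7604 barcodes with at least 500 UMIs, whose median was 2874 to 3786 UMIs. Clustering without the 9 receptors and their pathway genes gave 51 clusters, of which 11 with 2624 cells stayed unnamed, including 1 of 1630 cells rich in mitochondrial RNA. Class names ending in -like rest on marker genes. A pro-B- and pre-B-like cluster of 150 cells, called B7 here, came almost wholly from the day 3 library (143 cells) and is given on its own. The day 12 library stood apart in a lower median mitochondrial share (0.691%, against 1.66% to 2.19% in the other libraries) and few B-lineage and plasmacytoid dendritic cells, with 97 B-like, 49 pro-B- and pre-B-like and 34 plasmacytoid dendritic-like cells. A monocyte-like cluster led by Ccl2 and Atf3 held 330 cells at day 0 and 145 at day 12, but 10, 7 and 7 at days 3, 6 and 9. Of 31551 distinct barcodes, 574 occurred in more than 1 library.

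A level is given as UMIs of the gene per 10000 UMIs of the class in a library. The 5 values of a gene in a class are given in day order, from day 0 to day 12. Values over libraries are the median with the lowest and highest library among those with at least 20 cells of the class, which are all 5 unless stated. Intervals are exact 95% intervals (Poisson for levels, Clopper-Pearson for shares) and cover counting error only. Levels of different receptors are not compared, since a 3′ count depends on the gene's end as well as on its amount. Free RNA was measured in barcodes of at most 100 UMIs.

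Csf1r was highest in nonclassical monocyte-like cells, Csf3r in mature neutrophil-like cells, Csf2ra in monocyte progenitor-like cells, Kit in stem- and multipotent progenitor-like cells and Ifngr1 in nonclassical monocyte-like cells. Flt3 and Csf2rb had their highest medians in plasmacytoid dendritic-like cells, Il7r in T-like cells and Il6ra in classical monocyte-like cells. For Csf1r, Csf3r and Ifngr1 the leading class lay above every other named class in every library range, and for the other 6 it overlapped the next class. An alternative used 1 round of clustering at resolution 1.2, without the finer clusters within classes. There the nonclassical monocyte-like class changed, its median Ifngr1 level was 2.52 and NK-like cells led at 4.05.

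**Figure D1:**
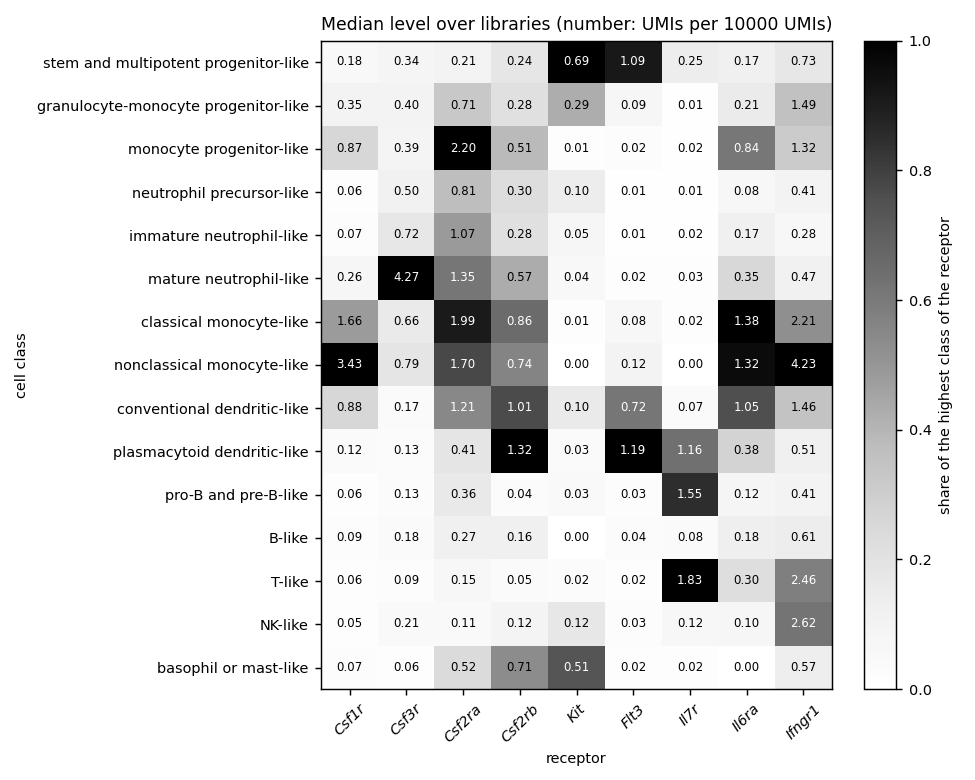
Median level of the 9 receptors (columns) in the named cell classes (rows), printed in each cell as UMIs per 10000 UMIs of the class and shaded from 0 to the highest class of that receptor. The darkest cells fall in myeloid classes for Csf1r, Csf3r, Csf2ra, Il6ra and Ifngr1, and in stem-like, dendritic-like or lymphoid-like classes for Kit, Flt3, Csf2rb and Il7r.

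Csf1r, the receptor for the macrophage growth factor CSF1 and for IL-34, had levels of 3.24, 4.67, 4.58, 2.91 and 3.43 in nonclassical monocyte-like cells. These 5 libraries had no order by day, and all of them lay above every library of classical monocyte-like cells, where the level of Csf1r was 1.66 (1.41 to 1.87). Lower still were conventional dendritic-like cells at 0.881 (0.611 to 1.24) and monocyte progenitor-like cells at 0.871 (0.669 to 0.990), which overlapped each other. In T-like cells, which should lack the receptor, the level of Csf1r was 0.0568 (0.0286 to 0.0935), against 0.466 in free RNA. After each cell was thinned to 1000 UMIs, 31.4% of nonclassical monocyte-like cells held a Csf1r UMI and 0.548% of T-like cells did, with library median depths of 3548 to 5449 and 1906 to 2725 UMIs and 6 and 187 shallower cells left out. Before thinning, the share in nonclassical monocyte-like cells was 77.8%.

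Csf3r, the receptor for G-CSF, the growth factor of neutrophil production, had levels of 4.49, 4.27, 4.80, 3.99 and 3.02 in mature neutrophil-like cells, from 1629 to 2140 UMIs in each library. The day 12 library was the lowest of the 5. The next named class, nonclassical monocyte-like cells, had a Csf3r level of 0.787 (0.596 to 0.990), and it overlapped immature neutrophil-like cells at 0.724 (0.550 to 0.816) and classical monocyte-like cells at 0.658 (0.535 to 0.755). Csf3r made up 1.46 UMIs per 10000 of free RNA, which is above its level in every named class but mature neutrophil-like cells. In T-like cells, which should lack it, the level of Csf3r was 0.0935 (0.0627 to 0.219). Thinned shares with a Csf3r UMI were 37.1% of mature neutrophil-like cells and 1.64% of T-like cells.

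**Figure D2:**
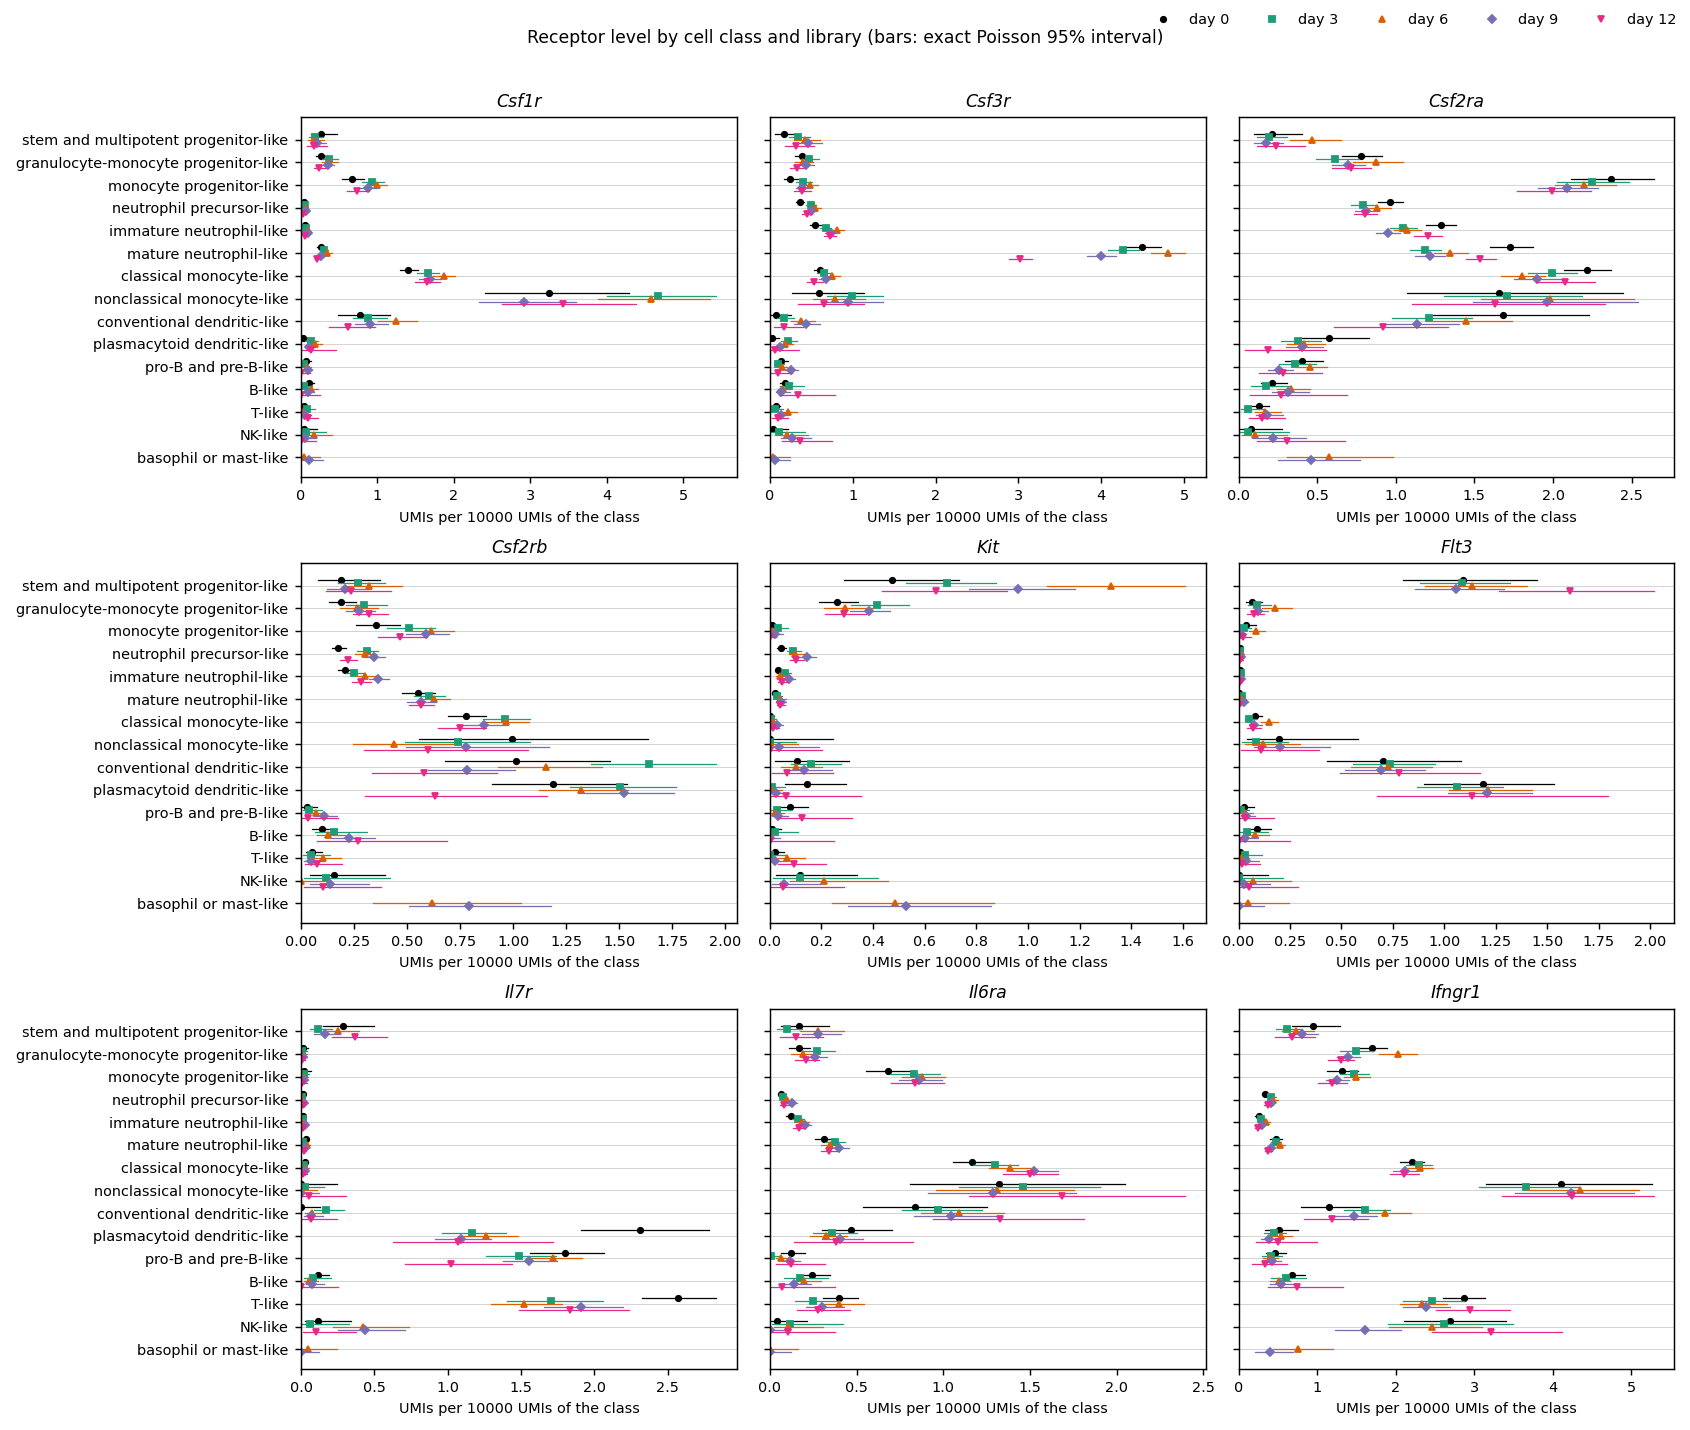
Level of each receptor (x axis, UMIs per 10000 UMIs of the class, linear) in the named classes (y axis), with 1 point for each library, coloured by day, and exact Poisson 95% intervals as bars. For Csf3r all 5 points of mature neutrophil-like cells lie at 3.02 or above, and for Csf1r all 5 of nonclassical monocyte-like cells lie at 2.91 or above, clear of the other classes.

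The 2 chains of the GM-CSF receptor were distributed differently. Csf2ra, the chain that binds GM-CSF, was spread over the myeloid classes: 2.20 (1.99 to 2.37) in monocyte progenitor-like cells, 1.99 (1.80 to 2.21) in classical monocyte-like cells, 1.70 (1.63 to 1.98) in nonclassical monocyte-like cells and 1.35 (1.19 to 1.73) in mature neutrophil-like cells. Each of these classes overlapped the next, so no single class led. Csf2ra was at 0.213 (0.173 to 0.467) in stem-like cells and 0.15 (0.0627 to 0.180) in T-like cells, and at 1.31 in free RNA. Thinned shares of cells with a Csf2ra UMI were 21.5% in monocyte progenitor-like and 1.63% in T-like cells.

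Csf2rb, the common beta chain shared by the GM-CSF, IL-3 and IL-5 receptors, had levels of 1.19, 1.5, 1.32, 1.52 and 0.631 in plasmacytoid dendritic-like cells. The day 12 value, from 34 cells, was the lowest. Conventional dendritic-like cells had a Csf2rb level of 1.01 (0.577 to 1.64) and classical monocyte-like cells one of 0.863 (0.751 to 0.966), and these ranges overlapped that of the plasmacytoid class. Csf2rb was low in neutrophil precursor-like cells at 0.301 (0.176 to 0.343) and in granulocyte-monocyte progenitor-like cells at 0.275 (0.186 to 0.319). Free RNA held 0.565 per 10000, and T-like cells 0.0507 (0.0470 to 0.105).

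Both GM-CSF receptor chains were detected together in 285 of 779 monocyte progenitor-like cells (36.6%), 111 of 400 conventional dendritic-like cells (27.8%) and 641 of 2652 classical monocyte-like cells (24.2%). After thinning to 1000 UMIs they were together in 14 of 769, 6 of 382 and 38 of 2606. In plasmacytoid dendritic-like cells, 350 of 847 held Csf2rb, 134 held Csf2ra and 55 held both. Csf2rb2, the mouse copy that serves IL-3 alone, was highest in the same plasmacytoid class at 1.04 (0.820 to 1.25). Il3ra, the IL-3-binding chain, was highest in basophil- or mast-like cells at 0.816 (0.707 to 0.924, 2 libraries).

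Kit, the receptor for stem cell factor, and Flt3, the receptor for FLT3 ligand, met in the stem- and multipotent progenitor-like cells, a class led by Cd34, Dntt, Adgrg1 and Hlf. Kit had levels of 0.473, 0.687, 1.32, 0.960 and 0.644 there, from 20, 64, 99, 89 and 30 UMIs. The day 6 level had an interval of 1.07 to 1.61, above those of days 0, 3 and 12. Basophil- or mast-like cells held 0.507 (0.486 to 0.528, 2 libraries), which overlapped the stem-like range, and granulocyte-monocyte progenitor-like cells 0.292 (0.258 to 0.416), which lay below both. Kit was at 0.0988 (0.0432 to 0.143) in neutrophil precursor-like cells, close to the 0.103 of free RNA, and at 0.00876 (0 to 0.0303) in monocyte progenitor-like cells. In all, 2 UMIs were counted in all 2237 B-like cells.

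Flt3 had levels of 1.09, 1.08, 1.13, 1.06 and 1.61 in the stem-like cells. The first 4 were alike and the day 12 library was the highest, with an interval of 1.27 to 2.02 that overlapped that of day 3 (0.883 to 1.32). Plasmacytoid dendritic-like cells held as much, 1.19 (1.06 to 1.21), and conventional dendritic-like cells 0.724 (0.693 to 0.781), below every library of the other 2. In granulocyte-monocyte progenitor-like cells Flt3 was at 0.0891 (0.0672 to 0.175) and in neutrophil precursor-like cells at 0.00902 (0.00499 to 0.0107), with 0.115 in free RNA. The thinned share of plasmacytoid dendritic-like cells with an Flt3 UMI was 9.62%, against 0.0721% of mature neutrophil-like cells. Kit and Flt3 UMIs occurred together in 80 of 322 stem-like cells (24.8%), 23 of 576 granulocyte-monocyte progenitor-like cells (3.99%) and 14 of 400 conventional dendritic-like cells (3.50%). After thinning to 1000 UMIs they were together in 6 of 322, 0 of 566 and 2 of 382 cells.

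Il7r, the IL-7-binding chain that works with Il2rg, was high in 3 classes. T-like cells had Il7r levels of 2.57, 1.71, 1.52, 1.91 and 1.83, and pro-B- and pre-B-like cells levels of 1.80, 1.49, 1.72, 1.55 and 1.03. In plasmacytoid dendritic-like cells it was at 2.31, 1.16, 1.26, 1.09 and 1.07. The day 0 library was the highest of the 5 in all 3 classes, and the classes overlapped one another. The day 3 cluster B7 held 0.728 (196 UMIs in 143 cells), stem-like cells 0.253 (0.118 to 0.365) and mature neutrophil-like cells, which should lack it, 0.0277 (0.0131 to 0.0381). B-like cells held 0.0756 (0 to 0.114), and no B-like library reached the lowest library of the pro-B- and pre-B-like class. Il2rg, the common gamma chain, was highest in NK-like cells at 2.04 (1.72 to 2.27) and T-like cells at 1.95.

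Flt3 and Il7r were found in the same barcode in 137 of 847 plasmacytoid dendritic-like cells (16.2%) and in 25 of 322 stem-like cells (7.76%), and after thinning to 1000 UMIs in 7 of 770 and 0 of 322. Kit and Il7r were found together in 10 stem-like cells (3.11%) and 10 of 1310 pro-B- and pre-B-like cells. Most cells of each class held neither or 1 of the receptors, which at these depths does not show that the other was absent.

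Il6ra, the IL-6-binding chain that signals through Il6st, was highest in monocyte- and dendritic-like cells. Its level was 1.16, 1.3, 1.38, 1.52 and 1.5 in classical monocyte-like cells, with day 0 the lowest. Nonclassical monocyte-like cells held 1.32 (1.29 to 1.69), conventional dendritic-like cells 1.05 (0.840 to 1.32) and monocyte progenitor-like cells 0.840 (0.684 to 0.880), each overlapping the next. T-like cells held 0.303 (0.251 to 0.400) and neutrophil precursor-like cells 0.0811 (0.0631 to 0.125), with 0.389 in free RNA. Il6st was highest in conventional dendritic-like cells at 0.497 (0.368 to 0.611).

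Ifngr1, the interferon gamma-binding chain, had a level of at least 0.243 in every library of every class given. The level was 4.11, 3.66, 4.34, 4.23 and 4.24 in nonclassical monocyte-like cells, above every library of the other classes taken whole. NK-like cells followed at 2.62 (1.61 to 3.21), T-like cells at 2.46 (2.34 to 2.95) and classical monocyte-like cells at 2.21 (2.1 to 2.31), and the T-like and classical monocyte-like ranges did not overlap. The lowest named classes with all libraries were immature neutrophil-like cells at 0.285 (0.243 to 0.348) and pro-B- and pre-B-like cells at 0.407 (0.342 to 0.463), against 1.08 in free RNA. Within the T-like class, the cluster led by Sh2d2a and Xcl1 stood at 5.22 to 7.72 for Ifngr1, above every nonclassical monocyte-like library. Among whole classes, the partner chain Ifngr2 was also highest in nonclassical monocyte-like cells, at 1.72 (1.41 to 2.01). Its ligand Ifng was highest in NK-like cells at 0.900 (0.351 to 1.66), with 118 UMIs.

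Set side by side from progenitor to mature neutrophil-like cells, the median level of Kit fell at each step. That of Csf3r rose mainly at the last step. Kit was at 0.373 (0.269 to 0.560) in the granulocyte-monocyte progenitor-like cluster led by Elane, 0.0988 in precursor-like cells, 0.0490 (0.0311 to 0.0733) in immature neutrophil-like cells and 0.0381 (0.0193 to 0.0415) in mature ones. Csf3r was at 0.486 (0.445 to 0.678), 0.496 (0.366 to 0.546), 0.724 and 4.27 in the same order. Free RNA held 1.46 of Csf3r, above its median before the mature step, and 0.103 of Kit, above its median after the progenitor-like cluster. Per cell, Csf3r gave 0.800, 0.546, 0.340 and 1.07 UMIs, with total UMIs of a cell of 10288 to 12756 in precursor-like and 2042 to 2582 in mature cells at the library medians. The level of Csf3r was thus higher in immature than in precursor-like cells while the UMIs per cell were lower. Kit gave 0.558, 0.114, 0.0230 and 0.0100 UMIs per cell, so up to the immature cells both receptors fell per cell. Kit and Csf3r UMIs occurred together in 66 of 325 cells of the Elane-led cluster (20.3%), 94 of 2359 precursor-like cells (3.98%) and 49 of 6049 immature neutrophil-like cells (0.810%). The median totals of these cells were 15100, 11084 and 4476 UMIs, and after thinning to 1000 UMIs the counts were 0 of 324, 2 of 2320 and 3 of 5637, so no order was seen at equal depth.

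**Figure D3:**
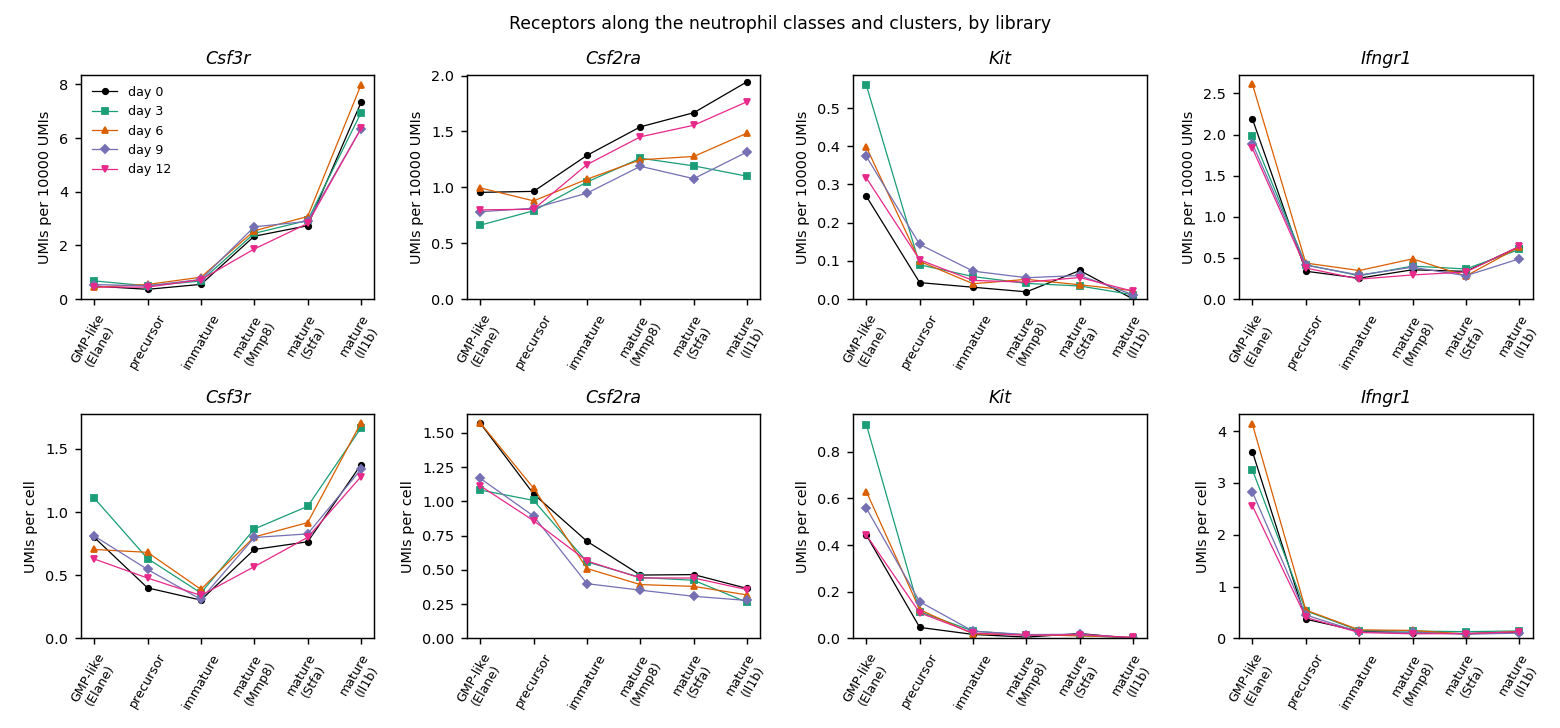
Csf3r, Csf2ra, Kit and Ifngr1 along the neutrophil classes and clusters (x axis, from the granulocyte-monocyte progenitor-like cluster led by Elane to the mature cluster led by Il1b), with 1 line for each library. The upper panels give UMIs per 10000 UMIs and the lower panels UMIs per cell. Csf3r reaches 6.35 to 7.98 per 10000 in the Il1b-led cluster in all 5 libraries, while Kit and Ifngr1 have their highest levels in the progenitor-like cluster.

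The mature neutrophil-like cells were not uniform for Csf3r. Its level was 6.94 (6.35 to 7.98) in the cluster led by Il1b and Cxcl2, 2.90 (2.74 to 3.08) in the one led by the stefin genes and 2.45 (1.87 to 2.69) in the one led by Retnlg and Mmp8. The Il1b-led cluster lay above every library of the other 2. UMIs per cell were 1.37, 0.827 and 0.798, so the order was the same on both scales. Csf2rb was also higher in the Il1b-led cluster, at 0.807 (0.757 to 0.825) against 0.479 (0.338 to 0.508) in the Retnlg-led one, whereas Csf2ra ranges of the 3 clusters overlapped. The clusters were built from cells of the same libraries without the receptors, and no test was made between them.

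The granulocyte-monocyte progenitor-like cells divided along Csf1r. In the cluster led by Mpo and Ctsg with Cd34, the level of Csf1r was 0.549, 0.634, 0.837, 0.680 and 0.464, and in the Elane-led cluster 0.0608, 0.0170, 0.0819, 0.0916 and 0.0307. The 2 sets of libraries did not overlap. Csf3r went the other way, at 0.304 (0.188 to 0.331) in the Mpo-led and 0.486 (0.445 to 0.678) in the Elane-led cluster. Flt3 was at 0.166 (0.132 to 0.389) in the Mpo-led and 0.0141 (0 to 0.0468) in the Elane-led cluster, and Ifngr1 at 0.971 (0.729 to 1.11) and 1.98 (1.83 to 2.61), also without overlap. Kit overlapped between them. Csf1r and Csf3r UMIs were in the same cell in 51 of 251 Mpo-led cells (20.3%), 16 of 325 Elane-led cells (4.92%) and 521 of 2652 classical monocyte-like cells (19.6%). After thinning to 1000 UMIs the counts were 0 of 242, 0 of 324 and 28 of 2606 (1.07%), so the difference between the progenitor-like clusters was not detectable at equal depth.

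**Figure D4:**
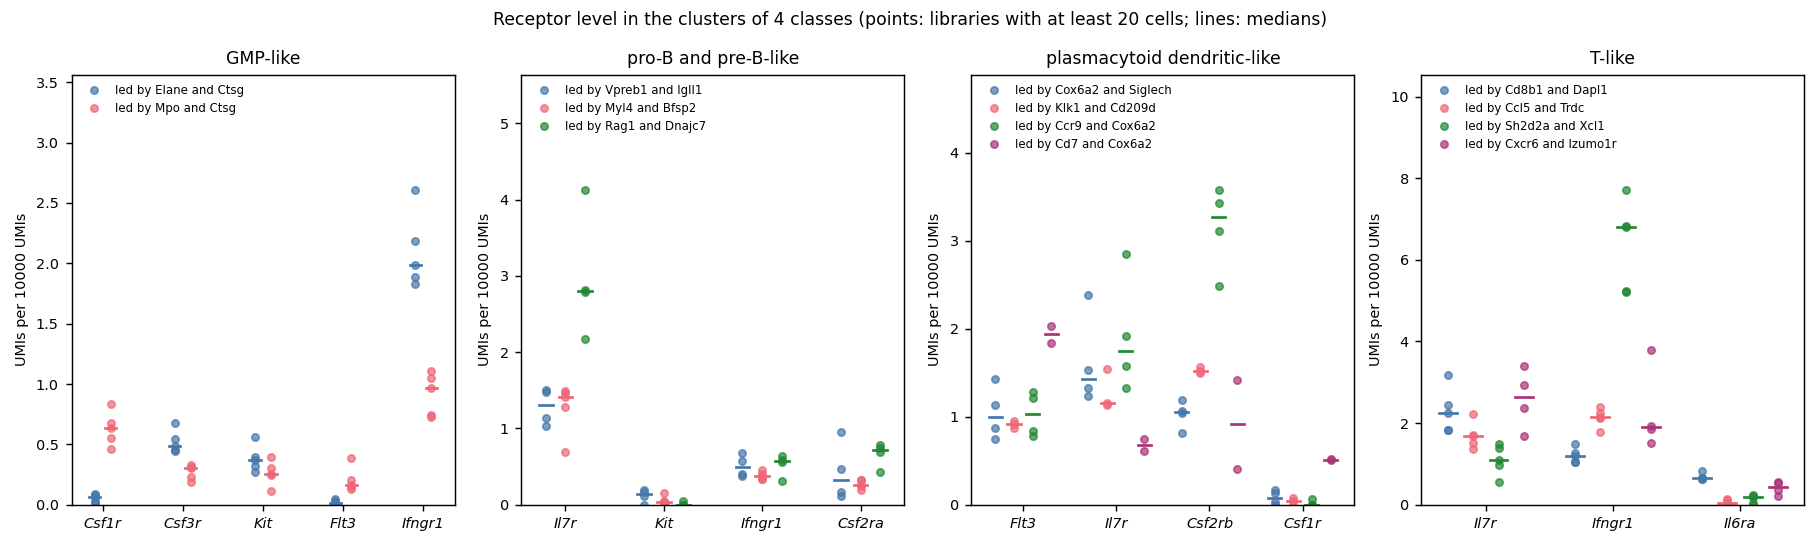
Receptor level (y axis, UMIs per 10000 UMIs, linear from 0) in the clusters of 4 classes, with 1 point for each library that held at least 20 cells and a line at the median. The Mpo-led and Elane-led progenitor-like clusters separate in Csf1r, and the T-like cluster led by Sh2d2a and Xcl1 stands at 5.22 to 7.72 for Ifngr1.

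Among plasmacytoid dendritic-like cells, Csf2rb was at 3.27 (2.49 to 3.58, 4 libraries) in the cluster led by Ccr9 and 1.05 (0.816 to 1.19, 4 libraries) in the one led by Cox6a2 and Siglech. A cluster led by Cd7 held more Flt3, 1.84 and 2.03 in the 2 libraries with enough cells, against 0.748 to 1.43 in the Cox6a2-led cluster, and Csf1r at 0.517 and 0.508. Its Il7r level was 0.746 and 0.609. The Ccr9-led cluster had Il7r at 2.84, 1.91, 1.33 and 1.57 at days 0, 3, 6 and 9.

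Among the lymphoid classes, Il7r had its highest median in the pro-B- and pre-B-like cluster led by Rag1, at 2.80 (2.18 to 4.13, 4 libraries), a range that overlapped those of the T-like clusters led by Cxcr6 (2.64, from 1.68 to 3.39, 4 libraries) and Cd8b1. It was at 1.42 (0.688 to 1.49) in the cluster led by Myl4 and 1.31 (1.03 to 1.5, 4 libraries) in the one led by Vpreb1, and at 0.172 (0.101 to 0.376, 4 libraries) in the B-like cluster led by Ms4a1 and 0.0151 (0 to 0.0699) in the one led by Ighd. Per cell the order of the first 2 differed: the Rag1-led cluster had 0.489 Il7r UMIs and the Myl4-led one 1.21, with median totals of 1631 and 6298 UMIs. In T-like cells, the cluster led by Sh2d2a and Xcl1 had an Ifngr1 level of 6.80 (5.22 to 7.72), above every library of the Cd8b1-led cluster at 1.19 (1.05 to 1.49). For Il7r these clusters stood in the opposite order, at a median of 1.10 and 2.25, and the latter ranged from 1.82 to 3.17. The B7 cluster of day 3, led by Myl10, Rnase12 and Vpreb2, held 0 Kit UMIs in 143 cells, which allows up to 0.0111 per 10000 when a count of 0 is taken to allow 3 UMIs, and an Ifngr1 level of 0.728.

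In classical monocyte-like cells, the cluster led by Nr4a2 and Cd14 had Csf2rb at 1.65, 2.50, 2.17, 1.93 and 1.72. The Ccr2-led cluster had Csf2rb at 0.522, 0.627, 0.661, 0.639 and 0.636, without overlap. Csf2ra was similar in both, at 1.89 to 2.23 and 1.59 to 2.52. In the Ccl2-led cluster, present only at days 0 and 12 in number, Csf1r was at 1.31 and 1.78 and Csf2rb at 0.445 and 0.454.

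The ligands were sparse in these cells. Of 10 ligand genes, Kitl (13 UMIs over all cells), Il7 (11), Il34 (10) and Csf2 (9) were near the limit of detection, and Csf3 had 34 UMIs, of which 21 were in classical monocyte-like cells. Flt3l was highest in NK-like cells at 0.291 (0.140 to 0.519) and T-like cells at 0.279, and Csf1 in basophil- or mast-like cells at 0.341 (0.221 to 0.462, 2 libraries). Stromal-like cells numbered 11 in all, led by Col2a1, and were too few for the levels of stromal ligands to be measured. An unnamed cluster of 130 cells had Cxcl12 and Col1a2 among its leading genes, after hemoglobin genes. The unnamed clusters together held 11 of the 13 Kitl UMIs and 7 of the 10 Il34 UMIs. Of the other receptors, Epor, the erythropoietin receptor, had 11 UMIs in all cells.

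Among 8 signalling genes, Jak1 was highest in NK-like cells at 4.09 (2.89 to 4.98), ahead of T-like cells at 2.56, and Stat3 in plasmacytoid dendritic-like cells at 1.17 (0.947 to 1.31). Among 8 feedback genes, Socs2, a target of STAT5, was highest in the B7 cluster at 1.3 and next in pro-B- and pre-B-like cells at 0.505. Cish, another, was at 0.163 in B7 and 0.127 in basophil- or mast-like cells (0.0884 to 0.165, 2 libraries), which overlapped it. Ptpn6, the phosphatase SHP-1, was highest in nonclassical monocyte-like cells at 3.44 (2.27 to 3.84).

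The genes whose levels ran most like each receptor over 16 classes were taken from 10721 genes by Pearson's r of log2 levels. They were Tns4, Pros1 and Adgre1 for Csf1r (r from 0.952 to 0.963), Ascl2, Slc7a11 and Trem1 for Csf3r (from 0.905 to 0.934) and Rab32, App and Ralb for Csf2ra (from 0.940 to 0.945). For Csf2rb they were Tmem50b, Arrdc4 and Sirpa (from 0.856 to 0.902), for Kit Fam69b, Rab38 and Krt18 (from 0.923 to 0.963) and for Flt3 Grasp, Tns1 and Tpm2 (from 0.876 to 0.888). Those of Il7r were Plcg1, Rab3ip and Cdc37l1 (from 0.875 to 0.886), those of Il6ra Mvd, Ptpro and Pid1 (from 0.910 to 0.933) and those of Ifngr1 Ms4a6b, Fam105a and Rap2b (from 0.882 to 0.920). The points share the libraries, and these values describe the classes only.

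Across the days after transplantation, few receptors passed the fold limit. By the study's flow cytometry, leukemia cells were rare in the marrow up to day 9 and more frequent at day 12. A comparison needed 50 cells of the class in every library used, and the transcript counted in 10% or more of the cells on either day. A receptor was called when days 3, 6 and 9 all lay beyond 1.5-fold on the same side of day 0. Of 48 receptor and class pairs in 10 classes, 3 were higher and 1 was lower (8.33%), against 8.19% of all gene and class pairs so compared, so the share was near the background. At day 12, 2 of 35 pairs were higher and 0 lower (5.71%), against 15.0% of all. The median log2 ratio over days of the pairs was 0.16 for days 3, 6 and 9 and 0.04 for day 12.

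Kit was called in neutrophil precursor-like cells, with levels of 0.0432, 0.0898, 0.0988, 0.143 and 0.103, where day 0 was the lowest. The ratios to day 0 were 2.08 (1.26 to 3.50), 2.29 (1.38 to 3.86) and 3.31 (2.11 to 5.37) at days 3, 6 and 9. In the same class Csf2rb stood at 0.176, 0.310, 0.301, 0.343 and 0.222, with ratios of 1.76 (1.37 to 2.27), 1.71 (1.32 to 2.22) and 1.95 (1.53 to 2.49). The median log2 ratio of all genes tested in this class was 0.28, so relative to it the ratios were smaller. Kit was found in 4.55% of these cells at day 0, under the 10% limit. It was compared only because later days, where it was higher, passed that limit. At day 12 Kit was found in under 10% of these cells and was not compared. The total UMIs of the day 0 cells were also the lowest, with a median of 10288, and neither call was seen after thinning to 1000 UMIs, where the lowest log2 ratio of the 3 days turned to -1.45 for Kit and -0.41 for Csf2rb, and only 1 to 7 Kit UMI-bearing cells were left in a library at days 0, 3, 6 and 9. The Kit call also ended at resolution 1.2 (0.53), and the Csf2rb call by the mean of each cell (0.37) and without the 20 top genes (0.58). In free RNA the day 0 library was also the lowest of the 5, at 0.0620 against 0.0842 to 0.118 for Kit and at 0.437 against 0.513 to 0.681 for Csf2rb. The part of free RNA in the ratios was not tested.

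Csf3r was called higher in monocyte progenitor-like cells, at 0.243, 0.406, 0.482, 0.390 and 0.385. The 33 UMIs of day 0 gave ratios of 1.67 (1.09 to 2.62), 1.99 (1.33 to 3.03), 1.61 (1.07 to 2.47) and, at day 12, 1.59 (1.01 to 2.52). Neither call held after thinning to 1000 UMIs, where the lowest log2 ratio of days 3, 6 and 9 was 0.50 and that of day 12 was 0.25, or at resolution 1.2, with 0.43 and 0.22. In neutrophil precursor-like and immature neutrophil-like cells Csf3r was also above day 0 in every later library, by 1.22 to 1.49 times, with intervals above 1 but no call. The median log2 ratio of all genes tested for days 3, 6 and 9 was 0.11 in the monocyte progenitor-like and 0.19 in the immature class. Csf3r in free RNA was at 1.14 at day 0 and between 1.29 and 1.71 later, and its part in these ratios was not tested. In mature neutrophil-like cells the ratio was 0.950, 1.07 and 0.889 at days 3, 6 and 9 and 0.673 (0.630 to 0.719) at day 12. The Retnlg-led cluster, which had the lowest Csf3r level, held 523 cells at day 0 and 1333 at day 12, and within the Il1b-, stefin- and Retnlg-led clusters the levels at day 0 and day 12 were 7.33 and 6.36, 2.74 and 2.82, and 2.34 and 1.87.

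Il7r was the called receptor that was lower, in plasmacytoid dendritic-like cells, with ratios to day 0 of 0.503 (0.384 to 0.659), 0.546 (0.425 to 0.703) and 0.471 (0.363 to 0.612) at days 3, 6 and 9. The day 0 library stood alone, with the 4 later libraries between 1.07 and 1.26. Within the Cox6a2-led cluster the level was 2.38 at day 0 and 1.53 or less at days 3, 6 and 9, and after thinning 10 of 37 of its cells held an Il7r UMI at day 0 against 5 of 59, 6 of 70 and 10 of 88. Over the whole class, 23 of 99 thinned cells held an Il7r UMI at day 0 against 19 of 177, 25 of 225 and 29 of 239. In T-like cells Il7r was lower on every later day, at 0.665, 0.593, 0.744 and 0.714 times day 0 with all intervals under 1, without a call. Within the Cd8b1-led cluster it was at 3.17 at day 0 and between 1.82 and 2.44 later, and within the Ccl5-led cluster at 2.21 and between 1.36 and 1.71. The ratio in pro-B- and pre-B-like cells was 0.826, 0.954 and 0.864, and each interval held 1.

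Csf2ra was lower than at day 0 by less than the fold limit in several myeloid classes. Its ratios at days 3, 6 and 9 were 0.686, 0.779 and 0.703 in mature neutrophil-like cells, 0.814, 0.834 and 0.737 in immature ones and 0.900, 0.815 and 0.856 in classical monocyte-like cells, with every interval below 1. In each of the 3 mature neutrophil-like clusters Csf2ra was highest at day 0, at 1.94, 1.67 and 1.54 in the Il1b-, stefin- and Retnlg-led ones. In the classical monocyte-like cells Csf1r was higher, at 1.18, 1.33, 1.2 and 1.17 times day 0 on days 3, 6, 9 and 12, with intervals above 1. The Ccl2-led cluster, with 330 cells at day 0, had a Csf1r level of 1.31 on that day, and in the Ccr2-led cluster Csf1r was at 1.60 at day 0 and 1.70 to 1.98 later. Csf2rb in granulocyte-monocyte progenitor-like cells was called at day 12, at 1.71 (1.11 to 2.67) from 36 and 60 UMIs. After thinning to 1000 UMIs its log2 ratio was -0.58. That value rests on 1 and 2 cells with a UMI in the Elane- and Mpo-led clusters at day 0, and 2 and 0 at day 12. These are too few to decide whether the ratio depends on depth. Flt3 in plasmacytoid dendritic-like cells stayed at 0.893, 1.02 and 1.02 times day 0.

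**Figure D5:**
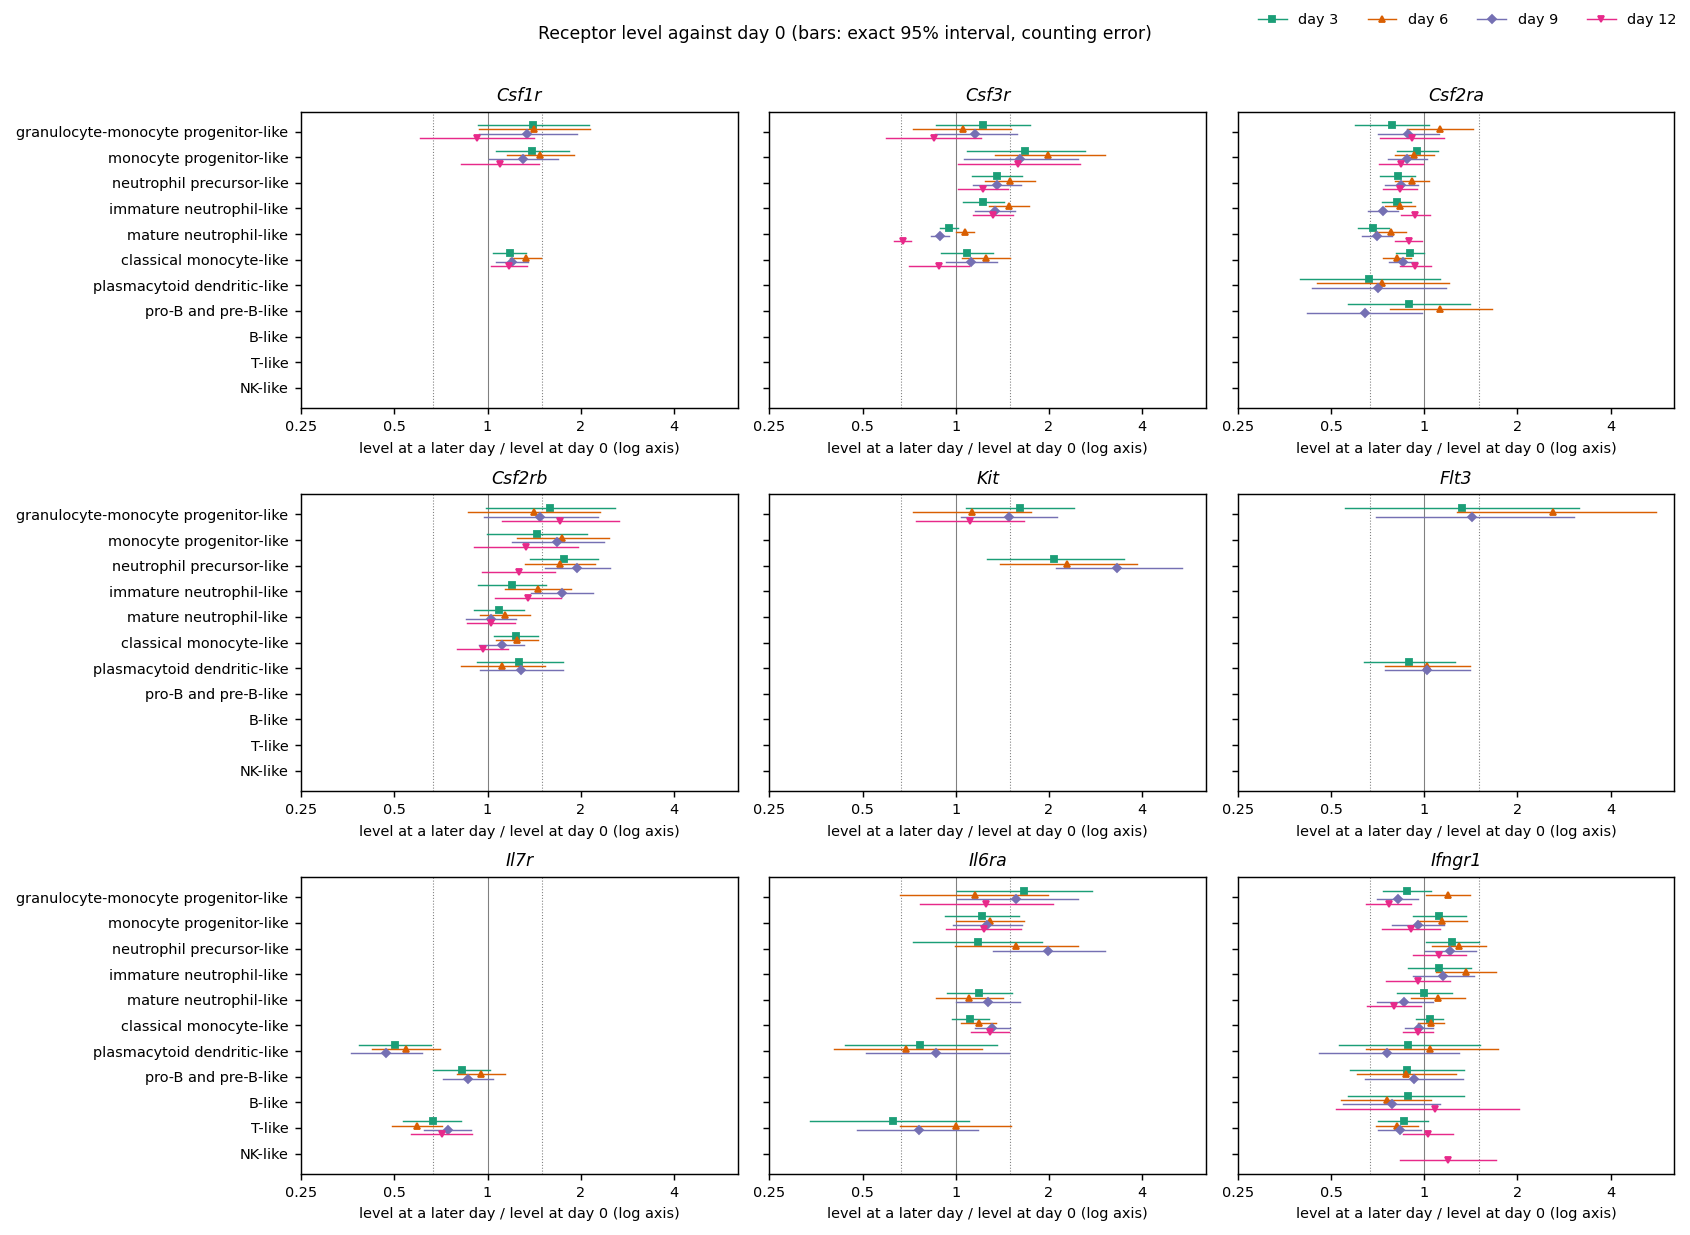
Ratio of the level of each receptor to its day 0 level (x axis, log2 spacing) in the classes compared (y axis), with 1 point for each later day and exact 95% intervals as bars. The solid line marks 1 and the dotted lines the fold limit of 1.5. Kit and Csf2rb in neutrophil precursor-like cells lie to its right at days 3, 6 and 9, and Il7r in plasmacytoid dendritic-like cells lies to its left.

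The place of the day 0 library among the 5 differed between receptors. Over the classes with at least 20 cells in every library and at least 50 UMIs of the receptor, day 0 was the lowest for Kit in 5 of 5, for Csf2rb in 7 of 11, for Csf3r in 7 of 13 and for Il6ra in 7 of 13. It was the highest for Csf2ra in 7 of 13 and for Il7r in 3 of 6. Over all 90 receptor and class pairs day 0 was the lowest in 35.6% and the highest in 17.8%, against 28.2% and 17.9% of all gene and class pairs. Classes from the same library are not independent, so these counts describe 1 library.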

How the data were processed

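Gene expression was measured by 10x Genomics 3′ v2 sequencing of bone marrow cells from 5 mice, 1 library for each day. The authors deposited UMI counts for each gene and barcode, raw and not normalized, made with Cell Ranger on mm10 per the labels and the study's methods, without a filter on barcodes.

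From these counts, barcodes with at least 500 UMIs were kept. They were clustered with scanpy 1.11.5 and leidenalg 0.10.2 (911 variable genes, 30 components, 20 neighbours, resolution 0.6, and finer clusters within classes), leaving out 44 genes, the receptors and pathway genes among them. Clusters were named from marker lists, and needed 3 markers. Scrublet's automatic threshold called 2.37% of cells at day 0 and no more than 0.0341% in any other library, so it did not work there, and doublets were kept in the values given. Clusters with a median doublet score of 0.15 or more stayed unnamed, and leaving out the top 5% of scores was an alternative. Levels are summed UMIs per 10000. Ratios have exact conditional intervals, and no test was made, with 1 library a day. The receptors were named in every class, with the 3 most alike genes each among those with at least 200 UMIs (log2 of level plus 0.1). The 9 receptors, the lists and the tests were chosen with earlier results of these data known. The ratio step was tested on simulated data for classical monocyte-like cells at days 3, 6 and 9, over 5520 genes. It called 100% of 100 genes raised 2-fold, 96.9% of 98 lowered 2-fold and 5 unchanged genes (0.0940%). The simulated cells were drawn without differences between mice or libraries. These shares thus cover counting error only and are not an error rate for calls between days. Some genes of the pathway lists are not reported here. Alternatives covered depth, mitochondrial and doublet filters, scaling, resolution and the fold limit. The one at resolution 1.2 was 1 round of clustering without the finer clusters within classes. Python 3.11.15, numpy 2.4.6, scipy 1.17.1, pandas 2.3.3 and matplotlib 3.10.9 were used.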

Additional observations from a re-analysis of the deposited data

Results flagged for a closer look

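Csf3r differed between classes in its day 12 ratio to day 0. It was 1.59 in monocyte progenitor-like, 1.22 in neutrophil precursor-like and 1.32 in immature neutrophil-like cells, with intervals above 1, and 0.673 in mature neutrophil-like cells, with an interval below 1. After thinning to 1000 UMIs the log2 ratio in monocyte progenitor-like cells was 0.25, from 3 of 135 and 4 of 151 cells with a UMI, and at resolution 1.2 it was 0.22. The difference between the classes was not tested. The class of mature cells held more cells of its lowest Csf3r cluster at day 12, and the part of that in the ratio was not tested.

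An unnamed cluster of 13 cells led by Calca, Il13 and Il5, with 4, 5 and 4 cells at days 0, 3 and 9, lay outside the comparisons. It held Kit at 1.65 (6 UMIs) and Il7r at 5.51 (20 UMIs) per 10000. Both lay above free RNA and, as values without their intervals, above every named class. With 6 UMIs, the Kit value cannot be told apart by counting error from the highest stem-like library, at 1.32.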

How the results depend on the processing

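The leading levels mostly held: 81 of the 91 values under alternatives stayed within 1 SD over libraries. Among these alternatives, leaving out Scrublet doublets removed at most 2 cells in any library but day 0, so it could hardly move a value. The mean of each cell gave Csf3r 5.84 and Flt3 1.10. Totals without the 20 top genes gave Csf3r 9.21, Csf2ra 2.51, Flt3 1.34, Il6ra 1.62 and Ifngr1 5.01. Resolution 1.2 gave Csf2ra 1.60, Flt3 1.12 and Ifngr1 2.52. At resolution 1.2 the leading class was classical monocyte-like for Csf2ra (1.94) and NK-like for Ifngr1 (4.05), and for Csf1r the nonclassical class, at 3.16, had under 20 cells in a library and was not ranked. The leading class also changed for Csf2ra without the top genes (mature neutrophil-like, 2.81), and by the mean of each cell for Flt3 (stem-like, 1.22), Il7r (pro-B- and pre-B-like, 2.24) and Il6ra (nonclassical monocyte-like, 1.54), and for Il6ra also without shared barcodes (nonclassical monocyte-like, 1.39). Shares at 1000 and 500 UMIs were 31.4% and 18.5% for Csf1r, 37.1% and 24.7% for Csf3r, 21.5% and 9.56% for Csf2ra, 13.3% and 8.75% for Csf2rb, 8.60% and 2.74% for Kit, 9.62% and 5.46% for Flt3, 16.8% and 10.2% for Il7r, 12.1% and 7.13% for Il6ra, and 33.8% and 20% for Ifngr1. Cells with both receptors fell at 1000 UMIs to 1.07% (Csf1r, Csf3r) and 1.46% (Csf2ra, Csf2rb) in classical monocyte-like cells. They fell to 0.177% (Kit, Csf3r) in all granulocyte-monocyte progenitor-like cells and 0.909% (Flt3, Il7r) in plasmacytoid dendritic-like cells. In stem-like cells they fell to 1.86% (Kit, Flt3) and 0% (Kit, Il7r). Kit and Il7r stayed together in 2 of 1187 pro-B- and pre-B-like and 1 of 770 plasmacytoid dendritic-like cells. The 4 calls of days 3, 6 and 9 became 1 when thinned (Il7r in plasmacytoid dendritic-like cells), 7 at resolution 1.2, 2 of them shared, 1 at a fold limit of 2 and 13 with a UMI at every day. The 2 of day 12 became 4 by the mean of each cell, 6 at resolution 1.2, 1 of them shared, 0 at 2-fold and 22 with a UMI at every day. That last setting replaced the 10% limit and let in pairs with few UMIs. These counts are given without the share of all genes called under the same setting, so they are not a result about the receptors. Of each call's log2 ratios, the one nearest to 0 or beyond it turned when thinned: Csf2rb and Kit in neutrophil precursor-like cells to -0.41 and -1.45, Csf2rb in granulocyte-monocyte progenitor-like cells to -0.58. Few UMIs were left after thinning, so these turns cannot decide whether the ratios depend on depth. Csf3r in monocyte progenitor-like cells fell short of the limit when thinned (0.50, day 12 0.25) and at resolution 1.2 (0.43, 0.22), Kit at resolution 1.2 (0.53), and Csf2rb by the mean of each cell (0.37) and without the top genes (0.58). Il7r kept its call under the 9 alternatives that gave it a value, the Scrublet one among them. It did not keep it at 2-fold, where Kit in neutrophil precursor-like cells, compared only through later days, was the 1 left. The cause was not tested. Leaving out the top 5% of doublet scores, shared barcodes, the Ccl2-led cluster or day 12 was chosen after seeing the data. A mitochondrial limit of 3 deviations left the stem-like and plasmacytoid classes under 20 cells in a library, and Csf2rb and Flt3 then led in conventional dendritic-like cells (1.02, 0.730) and Kit in granulocyte-monocyte progenitor-like cells (0.362). No paired analysis was possible because each day had 1 mouse. Depth limits what can be said of Kit, of pairs of receptors and of the ligands, and so does the small number of stromal-like cells for the ligands.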
